A study of Mus musculus with 3 samples.

Results

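Venous and adhesive endothelial cells were 302 of the 874 endothelial cells, and of the 30135 cell barcodes kept, in single-cell libraries of mouse femoral artery after a wire injury. An endothelial cell was a barcode with at least 300 genes and at most 15% mitochondrial UMIs that had a UMI of at least 4 of 8 pan-endothelial genes (Pecam1, Cdh5, Kdr, Tie1, Egfl7, Emcn, Esam, Ptprb), at most 1 UMI of the leukocyte gene Ptprc and at most 1 of 5 lymphatic genes (Prox1, Mmrn1, Ccl21a, Flt4, Reln). A UMI (unique molecular identifier) counts 1 captured transcript. Members were selected on measured UMIs of these and 12 more genes. A venous and adhesive cell, called a member here, had a UMI of at least 1 of Ackr1, Selp, Sele and Nr2f2, and of more of these 4 genes than of the 4 capillary genes Gpihbp1, Btnl9, Car4 and Rbp7 and than of the 4 arterial genes Gja5, Gja4, Sox17 and Hey1. Ackr1, Selp, Sele and Nr2f2 are called set B. The same rule with the other sets gave 309 capillary-set cells and 95 arterial-set cells, 107 cells were tied between sets, and 61 had a UMI of no set gene.

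The libraries came from wild-type male mice of 8 weeks: a Sham group, a group taken 2 days after wire-induced injury of the femoral artery (D2) and a group taken 7 days after it (D7). No treatment other than the injury is named, and the strain and the harvest time of the Sham mice are not given in the sources used here. Live single cells of 6 mice were pooled by group, sorted and made into 1 library with the 10x 3′ chemistry, so mice cannot be told apart and no group has a replicate. The labels call the cells arterial cells and do not say which vessels of the sample the endothelial cells lined.

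Endothelial cells of postcapillary and collecting veins are the main site where leukocytes leave the blood. They store P-selectin (Selp) with von Willebrand factor (Vwf) in Weibel-Palade bodies, make E-selectin (Sele) when stimulated by cytokines, and carry ACKR1, an atypical receptor that binds and transports chemokines. COUP-TFII (Nr2f2) is the transcription factor that holds venous identity by restraining Notch signalling, the pathway of arterial identity. NF-kappaB is the transcription factor family through which interleukin-1 and TNF induce the selectins and ICAM-1.

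The genes for both selectins lie side by side on chromosome 1 of GRCm38, Sele (ENSMUSG00000026582) at chr1:164048234-164057677 on the plus strand and Selp (ENSMUSG00000026580) at chr1:164115264-164150026 on the plus strand. Ackr1 (ENSMUSG00000037872) lies at chr1:173331886-173333750 on the minus strand and Nr2f2 (ENSMUSG00000030551) at chr7:70351944-70366735 on the minus strand. The 250 bases before the RefSeq start of both selectin genes (GRCm38.p6) are shown. Both selectin genes and Ackr1 were further apart between the libraries than Nr2f2, and the Ackr1 sequence is not shown. Capitals mark a match to an NF-kappaB-type motif (GGGA, then any 4 bases, then CC), searched on both strands.
Selp, chr1:164115014-164115263, plus strand: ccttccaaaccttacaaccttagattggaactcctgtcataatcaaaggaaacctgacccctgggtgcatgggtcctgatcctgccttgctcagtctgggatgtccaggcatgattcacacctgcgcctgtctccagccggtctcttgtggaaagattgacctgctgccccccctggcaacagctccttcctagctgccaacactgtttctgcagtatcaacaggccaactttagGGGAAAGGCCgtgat
Sele, chr1:164047984-164048233, plus strand: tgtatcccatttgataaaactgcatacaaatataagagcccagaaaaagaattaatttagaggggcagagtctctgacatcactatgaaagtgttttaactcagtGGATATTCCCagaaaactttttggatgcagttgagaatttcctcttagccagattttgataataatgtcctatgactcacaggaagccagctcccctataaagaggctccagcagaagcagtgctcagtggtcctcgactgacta
The Selp match begins 15 bases before the start on the given strand and the Sele match 145 bases before it on the other strand. In Nr2f2 the same window held 1 match and in Ackr1, Icam1 and Lrg1 it held 0. Over all RefSeq promoters of this length, 5793 of 32851 (17.6%) held a match, so a match is a description of the letters and not of a site in use.

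After filtering, 7451 Sham, 11473 D2 and 11211 D7 barcodes were kept, with 39756684 to 100571340 UMIs in a library. The median kept barcode had 4140 to 7056 UMIs. Members were deepest at D2, where the median member had 14578.5 UMIs, against 4131 in Sham and 4620 at D7. Their summed UMIs were 320996 in Sham, 792679 at D2 and 1225602 at D7. Between any 2 libraries 21 to 29 barcode sequences were shared, and none of them was a member in both.

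The 4 genes that chose the members were present in different proportions in the libraries, and their values are a description only. In Sham, 45 of 74 members carried Nr2f2 and none of the other 3 genes, so the adhesive side of the label rested on few Sham cells. Selp had a UMI in 29.7% of Sham members, Ackr1 in 17.6% and Sele in 4.05%, while Nr2f2 had one in 87.8%. At D2 no member carried Nr2f2 alone, Selp had a UMI in 90.9%, Ackr1 in 72.7%, Sele in 31.8% and Nr2f2 in 93.2%. D7 members were between the others for Selp (78.8%), Ackr1 (57.6%) and Sele (27.2%) and lowest for Nr2f2 (67.9%), and 17 of 184 carried Nr2f2 alone. All 4 genes were found together in 1 Sham, 13 D2 and 21 D7 members.

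As a level of the summed UMIs, in UMIs per 1000000 UMIs of the library's members (CPM), Selp was 171 in Sham (55 UMIs), 987 at D2 (782 UMIs) and 686 at D7 (841 UMIs). The D2 level was 5.76-fold the Sham level (95% interval 4.38 to 7.71) and the D7 level 4.0-fold (3.05 to 5.36). These and all later intervals of folds and shares between libraries are exact, cover counting error only, and come with no test, since each group is 1 library. Ackr1 was 106 CPM in Sham, 381 at D2 and 333 at D7. Sele was 9.35 CPM in Sham, where it had 3 UMIs, 136 at D2 and 167 at D7, and its D7 level was 17.9-fold the Sham level (6.04 to 87.5). Nr2f2 ran the other way, at 414 CPM in Sham, 271 at D2 and 298 at D7. The 3 cells with most Selp UMIs held 40.0% of them in Sham, 42.5% at D2 and 22.5% at D7.

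**Figure D1:**
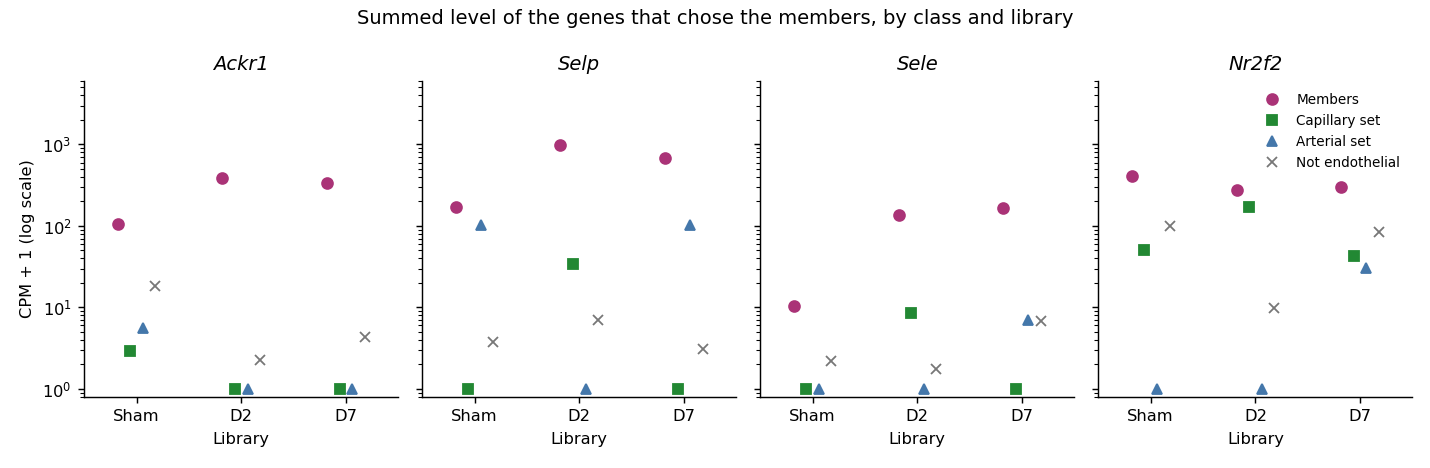
The plots by gene show CPM + 1 of summed UMIs on a log axis in the 3 libraries for members (circles), capillary-set cells (squares), arterial-set cells (triangles) and cells that are not endothelial (crosses), 1 value a library. Members are highest for each of the 4 genes in each library, and Selp, Ackr1 and Sele are lower in Sham members (171, 106 and 9.35 CPM) than in D2 members (987, 381 and 136 CPM).

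Because D2 members were deeper, shares of cells with a UMI were also read after thinning each cell to 1000 UMIs, which left out 4 Sham, 0 D2 and 3 D7 members. Selp then had a UMI in 14.3% of Sham members, 40.9% of D2 members and 44.2% of D7 members, and Ackr1 in 2.86%, 31.8% and 24.9%. Sele was seen in 2.86%, 9.09% and 11%, with intervals that overlapped between all 3 libraries (0.35 to 9.94%, 2.53 to 21.7% and 6.88 to 16.5%). For Nr2f2 the shares were 37.1%, 29.5% and 26%, also with overlapping intervals. B lymphocytes, which should lack these genes, gave 0% for Selp and Ackr1 in all 3 libraries at the same depth, and their median depth was 3538 to 4391 UMIs.

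The rule sits close to its limit for many cells. Set B led the next set by a single gene in 56 of 74 Sham, 9 of 44 D2 and 58 of 184 D7 members. Just outside, it was tied with the highest other set in 18 Sham, 4 D2 and 27 D7 cells. No gene of the capillary and arterial sets was found in 68 Sham, 32 D2 and 136 D7 members.

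Members made up a smaller share of the endothelial cells in Sham than after injury. Their share was 17.5% of 424 endothelial cells in Sham (14.0 to 21.4%, Clopper-Pearson), 55.0% of the 80 D2 cells (43.5 to 66.2%) and 49.7% of the 370 D7 cells (44.5 to 54.9%). The share at D2 was 3.15 times (2.12 to 4.64) and at D7 2.85 times (2.16 to 3.78) that in Sham, and D7 and D2 did not differ beyond counting error (0.904, 0.648 to 1.29). Among all kept barcodes members were 0.993% in Sham, 0.384% at D2 and 1.64% at D7, so that the D2 share was 0.386 times (0.260 to 0.568) and the D7 share 1.65 times (1.26 to 2.19) that of Sham. Capillary-set cells were 3.09% of kept barcodes in Sham, 0.174% at D2 and 0.526% at D7, which is 0.0565 times (0.0339 to 0.0893) and 0.170 times (0.126 to 0.228) Sham. Arterial-set cells were 0.537%, 0.0436% and 0.446%.

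Because the genes of the rule themselves differed between the libraries, more cells of this kind and more cells with a UMI of these genes cannot be told apart, nor can a loss of other endothelial cells. With set B read without Nr2f2, the Sham share was 6.13% of endothelial cells, and the D2 and D7 shares were 7.75 and 6.79 times it. With at least 2 set B genes asked for, the D2 share among all kept barcodes was 1.27 times that of Sham, with an interval that included 1 (0.732 to 2.26).

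**Figure D2:**
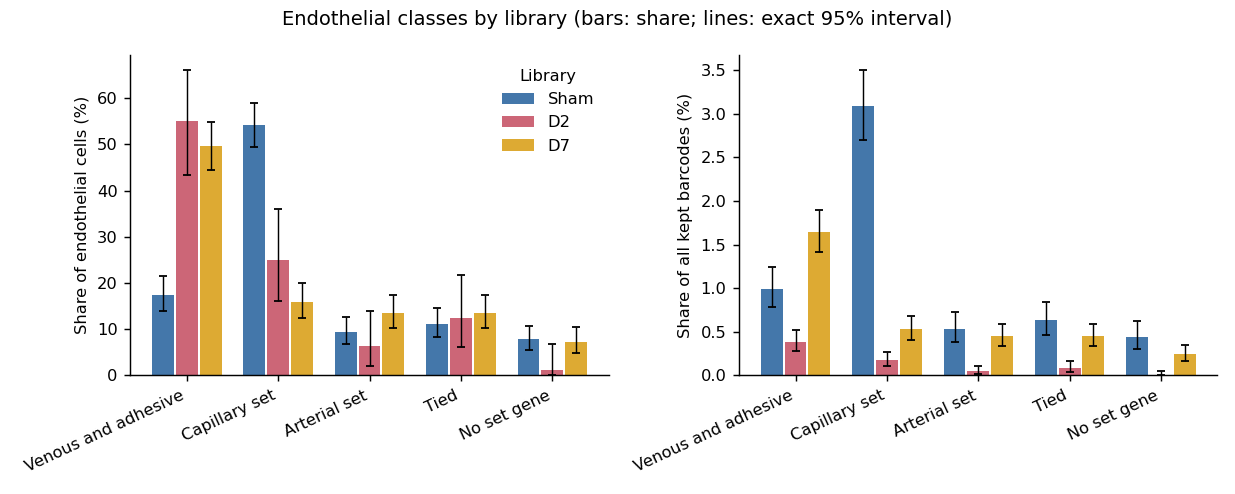
Bars give the share of each endothelial class among endothelial cells (left, percent) and among all kept barcodes (right, percent) in Sham, D2 and D7, with lines for the exact 95% interval of counting error. Venous and adhesive cells go from 17.5% of endothelial cells in Sham to 55.0% at D2 and 49.7% at D7, while among all kept barcodes they are 0.993%, 0.384% and 1.64%.

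Transcripts of the 3 adhesive genes were not confined to members. Members held 27.6% of the Selp UMIs of the Sham library, 57.2% at D2 and 75.4% at D7. For Ackr1 the members' part was 4.96% in Sham, where 612 of 686 UMIs were in barcodes with at least 4 fibroblast genes, 71.1% at D2 and 54.6% at D7. Sele UMIs were in members for 6.25%, 58.7% and 25.9%, and at D7 542 of 790 were in barcodes with at least 4 fibroblast genes. Vwf, which the rule did not use, had 49.5%, 62.0% and 61.4% of its UMIs in members. The level of Nr2f2 was higher than in members in barcodes with 2 or more lymphatic genes, at 683, 709 and 374 CPM.

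The label was checked against 16 marker lists of 4 to 8 genes. The pan-endothelial, capillary and arterial lists hold genes of the rule and so check nothing. Their sums in Sham, D2 and D7 members were 7221, 5683 and 6075 CPM for the 8 pan-endothelial genes, 12.5, 68.1 and 56.3 CPM for the 4 capillary genes and 18.7, 27.8 and 44.9 CPM for the 4 arterial genes. T cell genes summed to 0, 0 and 7.34 CPM, B cell genes to 0, 0 and 10.6 CPM, neutrophil genes to 9.35, 88.3 and 66.9 CPM, macrophage genes to 37.4, 66.9 and 76.7 CPM, platelet genes to 40.5, 45.4 and 47.3 CPM, and mesothelial genes were at 0 throughout. Smooth muscle genes summed to 296, 684 and 388 CPM, with Myh11 at 0 in Sham and at D2, and pericyte genes to 12.5, 2.52 and 47.3 CPM. The 7 lymphatic genes, 5 of which the rule limits, summed to 106, 24 and 81.6 CPM, with Reln at 0 throughout, and exceeded 50 per 10000 UMIs in 1 D7 member, at 139. The part of lymphatic cells in members that carry Nr2f2 alone was not tested. Erythroid genes summed to 65.4, 5.05 and 12.2 CPM and Schwann cell genes to 9.35, 0 and 25.3 CPM.

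Fibroblast genes stood out, at 3206 CPM in Sham, 51.7 CPM at D2 and 8313 CPM at D7. All 8 were detected in Sham and at D7 and 3 of 8 at D2, where Col1a2, Lum, Pdgfra, Dpt and Pi16 were at 0. They exceeded 50 per 10000 UMIs in 5 Sham, 0 D2 and 11 D7 members. Counts below are therefore also given without the members in which these or smooth muscle, pericyte, neutrophil or macrophage markers exceeded that level, a check added after the data were seen.

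Members differed from capillary-set cells of the same libraries in 758 of 8102 genes tested (9.36%), 419 higher (5.17%) and 339 lower (4.18%) in members. The test was edgeR's quasi-likelihood test on UMIs summed by library and class, with the library as a block and Benjamini-Hochberg adjustment over all genes tested. The 26 genes of the rule were left out of it. List counts of this comparison are to be read beside the shares given above. As both classes were cut from the same cells, an adjusted p here does not say that the classes are separate cell types. It tests a class difference fitted over the 3 libraries together and does not require a difference in each of them. The genes with the largest differences included a Weibel-Palade protein and several membrane proteins that had 0 or 1 UMI in capillary-set cells.

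Vwf, the platelet-binding glycoprotein of Weibel-Palade bodies (ENSMUSG00000001930, chr6:125546774-125686679, plus strand), was 1723 CPM in Sham, 744 at D2 and 955 at D7 in members and 11.5, 7.46 and 9.69 CPM in capillary-set cells. The groups did not overlap, and the log2 fold change was 6.97 ± 0.28 (SE, 3 libraries, adjusted p = 1.47e-05, edgeR). Gpm6a, a membrane glycoprotein, had 301 UMIs in members and 0 in capillary-set cells, at least 73.9-fold higher against a floor of 3 UMIs over the group, with 249, 71.9 and 134 CPM in Sham, D2 and D7 members. Olr1, which encodes the oxidized LDL receptor LOX-1, was 43.6, 79.5 and 166 CPM against 0 UMIs (at least 69.0-fold), but lost its call when the rule was read at 2000 UMIs. Tox, a nuclear protein, was at least 32.9-fold and Pkhd1l1 at least 18.9-fold higher, the second with no call in DESeq2.

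Htr2b, a serotonin receptor, was 184, 69.4 and 146 CPM in members and had 1 UMI in capillary-set cells, against 293 in members, a ratio of 216 over the summed libraries (38.4 to 8555, counting error, adjusted p = 7.48e-05, edgeR). Cytl1, a secreted cytokine-like protein, was 1526, 150 and 250 CPM against 8.63, 0 and 0 CPM (7.62 ± 0.37, adjusted p = 3.46e-05, edgeR). Gria3, a glutamate receptor subunit, Wipf3, an actin regulator, and Lepr, the leptin receptor, also had 1 UMI each in capillary-set cells, with ratios of 149 (26.4 to 5907), 72.9 (12.8 to 2909) and 150 (26.7 to 5965). Lepr was 43.6, 56.8 and 118 CPM in Sham, D2 and D7 members.

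The gene lists were chosen with earlier results of these data known, so their counts are a description. Of 17 tested genes of a list of other venous markers, 10 were higher in members and 1 was lower, with a median log2 fold change of 2.20 against -0.03 over all genes tested. Cpe, a prohormone carboxypeptidase (5.41), Bst1, a cell-surface cyclase (3.03, no call without D7), Ptgs1, which encodes cyclooxygenase 1 (2.88), and Slco2a1, a prostaglandin transporter (2.20), were among them, and so was Adgrg6, an adhesion G protein-coupled receptor with 3 UMIs in capillary-set cells (ratio 56.2, 19.0 to 275). Il1r1, the interleukin-1 receptor (2.56 ± 0.26, adjusted p = 0.00057, edgeR), and Il6st, the shared receptor subunit of the interleukin-6 family (2.57), were higher as well. Lrg1, a secreted glycoprotein of inflamed venules, was 969, 1195 and 1488 CPM in members and 144, 425 and 480 CPM in capillary-set cells (1.93 ± 0.27, adjusted p = 0.0028, edgeR). The lower one was Aplnr, the apelin receptor, which fell by 1.23 on the log2 scale and lost its call when the rule was read at 2000 UMIs.

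Genes of haemostasis and vessel tone came next, with 9 of 16 higher and 1 lower (median 1.36). Apart from Vwf and Ptgs1 these included Procr, the protein C receptor (2.79), Edn1, which encodes endothelin-1 (2.99), Nos3, the endothelial nitric oxide synthase (1.68), the Weibel-Palade trafficking gene Rab27a (2.06), Cd63 (1.44) and Ece1, the endothelin-converting enzyme (0.86). Without the Sham library Ptgs1, Nos3, Rab27a and Cd63 lost their calls, and without D7 Rab27a and Ece1 did. The caveolin gene Cav1 was the lower one, by 1.07 on the log2 scale.

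Of 13 tested adhesion genes outside the rule, 3 were higher and 2 lower (median 0.06). Both counts are above the shares over all genes tested, 5.17% higher and 4.18% lower. Icam1, the integrin ligand for firm leukocyte arrest, was 274, 223 and 188 CPM in members against 26.9, 74.6 and 17.0 CPM in capillary-set cells, with no overlap (2.76 ± 0.35, adjusted p = 0.00172, edgeR). Alcam, an adhesion molecule of the immunoglobulin family, was higher by 2.57, and Glycam1, an L-selectin ligand, had 1 UMI in capillary-set cells against 82 in members (ratio 60.4, 10.5 to 2415), and neither had a call in DESeq2. Vcam1, the ligand of VLA-4, was higher by 2.27 ± 0.66 without passing the test (adjusted p = 0.0668, edgeR). Podxl, a sialomucin, and the junction gene Jam3 were lower, by 1.10 and 2.13, and both calls were lost without the D7 library.

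Over all genes tested 5.17% were higher and 4.18% lower in members. NF-kappaB-linked genes were higher in 4 of 19, above that share, and lower in 0. The 4 were Cebpd (1.21), Socs3 (1.39), Ier3 (1.47) and Nfkbiz (1.61), and the list median was 0.79. Of these, Cebpd and Ier3 had no call without the D7 library and Nfkbiz none with the rule read at 2000 UMIs. Of 14 chemokines and cytokines 3 were higher and 2 lower, both above the shares over all genes. Il33, the alarmin interleukin-33, was higher by 3.15, the scavenging chemokine receptor Ackr3 by 1.73 and Ccl7 by 2.05, while Cxcl12 fell by 3.39 and Cxcl9 by 3.19. Barcodes that are not endothelial held more Il33 than members did at D2 (12.4 against 3.78 CPM) and D7 (198 against 62.0 CPM). For Sham the values were close, with 58.3 CPM in those barcodes against 65.4 CPM in members. Il33 thus did not set members apart from barcodes that are not endothelial. The Ccl7 call ended in several alternatives, among them removal of doublet calls, and the Ackr3 and Cxcl9 calls ended without the Sham library. Of the stress genes that tissue dissociation is known to induce, Nr4a1 (1.23) and Atf3 (2.01) of 19 were higher and none was lower, and their part in these differences was not tested.

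Capillary genes outside the rule were lower in 13 of 18 and higher in 0 (median -2.43). Aqp7, an aquaglyceroporin, was 0, 1.26 and 0 CPM in members against 256, 59.7 and 107 CPM, 1 UMI against 327, or 444-fold lower over the summed libraries (79.1 to 17585, counting error, adjusted p = 0.000105, edgeR). Timp4, a metalloproteinase inhibitor, had 2 UMIs against 646 (438-fold lower, 121 to 3628), and Rgcc, a cell cycle regulator, was lower by 4.45. The lipid-handling genes Lpl, Cd36 and Fabp4 fell by 3.29, 2.63 and 1.54, the last with no call once the D2 or the D7 library was left out. Clic5, Lnx1, Lrrc3b, Slc28a2 and Thrsp were other low genes, at log2 fold changes of -5.26, -5.19, -5.14, -4.96 and -4.65, and Vwa3a had 3 UMIs against 195.

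Interferon-stimulated genes were lower in 7 of 20 and higher in 0 (median -1.18). Rsad2, the antiviral enzyme viperin, was 0, 3.79 and 3.26 CPM in members and 254, 160 and 116 CPM in capillary-set cells (-5.62 ± 0.38, adjusted p = 9.37e-05, edgeR). Irf7, Ifit2, Ifi44 and Gbp7 lost their calls without the Sham library or when the rule was read at 2000 UMIs, and Bst2 without the D7 library. Junction genes were lower in 6 of 16. The tight junction claudin Cldn5 was 6.23, 6.31 and 40.0 CPM in members against 663, 153 and 344 CPM (-4.10 ± 0.44, adjusted p = 0.000701, edgeR), and plakoglobin (Jup) fell by 2.72.

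Among arterial genes outside the rule 2 of 15 were higher and 4 lower than in capillary-set cells, and cell cycle and glycolysis genes gave 0 calls of 18 and of 17. Over all genes tested 5.17% were higher and 4.18% lower (9.36% called), so 0 of 18 and 0 of 17 are near that share. For MHC genes 1 of 13 was higher and 2 lower, and the higher one, the class II gene H2-Eb1 (1.57, adjusted p = 0.0391, edgeR), turned to -1.14 with no call (adjusted p = 0.339) when the rule was read at 2000 UMIs. Of the other lists, cytokine receptors gave 3 higher and 0 lower of 16, angiogenic and basement membrane genes 1 and 5 of 22, and Tie, Notch and flow genes 3 and 2 of 21.

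Fewer genes were called without the replicate block for library (233), without the Sham library (335) or without the D7 library (378). Without the D2 library, which held 20 capillary-set cells, 1036 were called. DESeq2 called 433. Of 88 called genes that the naming rule or the lists hold, 39 kept the call without the block, 38 lost it, Lrg1 among them, and 11 had no value there. Without the members and capillary-set cells rich in markers of other cells, 418 genes were higher and 359 lower.

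**Figure D3:**
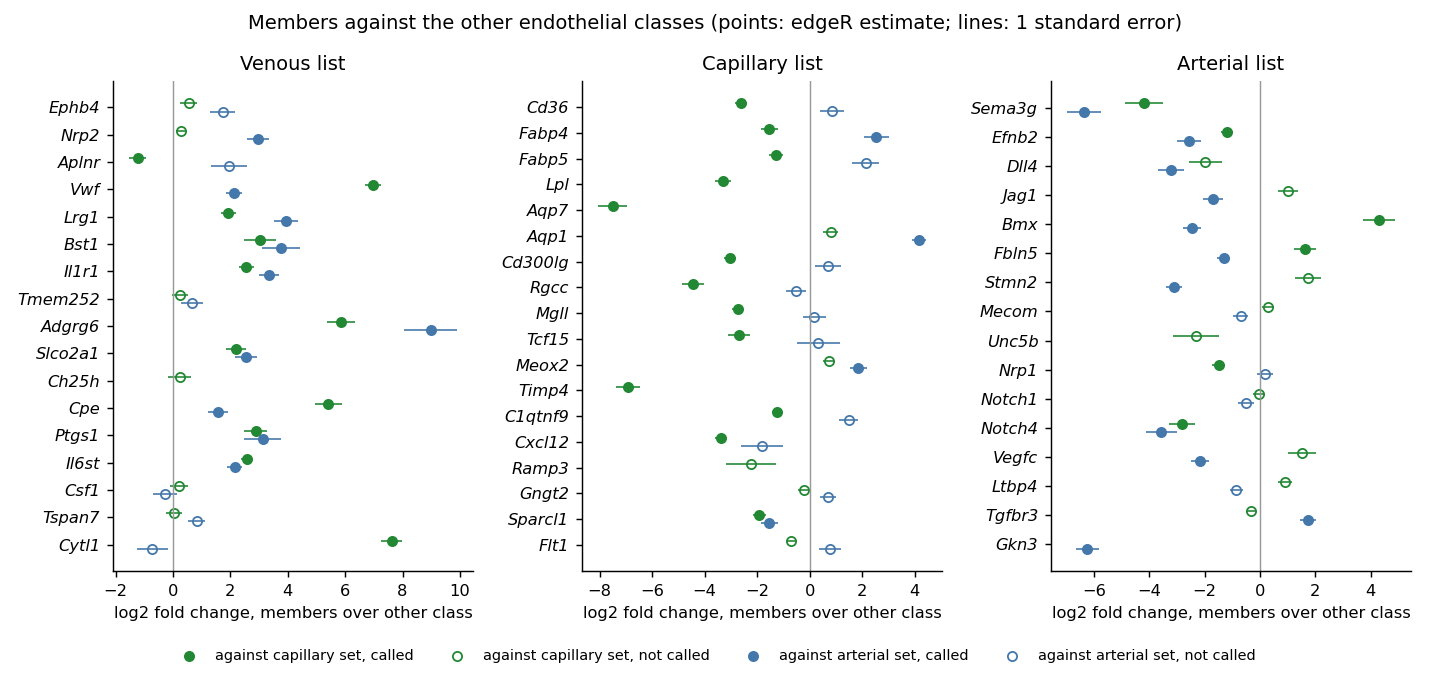
Points give the edgeR log2 fold change of members over capillary-set cells (green, 3 libraries) and over arterial-set cells (blue, Sham and D7) for the tested genes of the venous, capillary and arterial lists, with lines for 1 standard error and filled points for an adjusted p under 0.05. Of the venous genes, 10 of 17 are filled on the higher side against the capillary set and 10 of 16 against the arterial set.

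Against arterial-set cells the comparison could use the Sham and D7 libraries, since D2 had 5 such cells. Of 6282 genes tested 240 were called (3.82%), 136 higher (2.16%) and 104 lower (1.66%) in members. All of these calls ended when the library block was left out: 0 genes passed and 472 had an unadjusted p under 0.05 (edgeR), while DESeq2 with the block called 100. With Ptprc at 0 in every cell 102 genes were called, and without cells rich in other markers 403.

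Of 16 tested venous markers 10 were higher in members and 0 lower (median 2.14). The list was chosen with earlier results of these data known, and both class comparisons use the same Sham and D7 members. These counts are therefore a description and not a second support. Vwf was 518 CPM in Sham and 162 CPM at D7 in arterial-set cells, below both member libraries, and higher in members by 2.13 ± 0.28 (2 libraries, adjusted p = 0.00604, edgeR). Lrg1 was higher by 3.95 and Il1r1 by 3.36 (adjusted p = 0.00292 for both, edgeR), and Il6st, Slco2a1 and the semaphorin and VEGF co-receptor Nrp2 by 2.15, 2.55 and 2.96. Cytl1 did not separate these classes, at 5802 CPM in Sham and 160 CPM at D7 in arterial-set cells (log2 fold change -0.72, adjusted p = 0.727, edgeR).

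Genes with 0 UMIs in arterial-set cells were Olr1 (at least 34.0-fold higher), Adgrg6 (at least 26.5-fold), the metalloproteinase Adamts18 (at least 19.3-fold) and Gpr182, an atypical chemokine receptor (at least 11.5-fold). Lbp, the lipopolysaccharide-binding protein, was 218 CPM in Sham and 209 at D7 in members against 4.62 and 0 CPM, 326 UMIs against 1 (ratio 152, 27.2 to 6037, counting error, adjusted p = 0.00255, edgeR). Htr2b had 238 UMIs against 2 (ratio 55.6, 15.2 to 462) and Gria3 177 against 3 (27.6, 9.28 to 135). The aggrecanase Adamts5, Fam124a and the synaptic gene Nrxn3 had 1 UMI each in arterial-set cells and 85, 77 and 76 in members. The water channel Aqp1 was higher by 4.15, and Plvap, the diaphragm protein of fenestrae and caveolae, by 2.73.

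Arterial genes outside the rule were lower in 10 of 15 and higher in 1 (median -2.16). Gkn3, an arterial endothelial marker, was 9.35 and 2.45 CPM in members against 902 and 154 CPM (-6.24 ± 0.40, adjusted p = 0.000555, edgeR). Notch4, Dll4, Efnb2 and Bmx fell by 3.57, 3.20, 2.57 and 2.46, and the semaphorin gene Sema3g had 3 UMIs against 135 (96.3-fold lower, 32.2 to 473). Nebl, Igf2, Lrrc3b and Mannr had 1 or 2 UMIs in members, against 116, 95, 74 and 44 in arterial-set cells. Prdm16, Atp2a3, Krt18 and Cldn5 were lower by 5.29, 5.13, 5.04 and 5.0. Of 57 called genes that the naming rule or the lists hold, 17 lost the call with Ptprc at 0, among them Efnb2, Plvap and Cpe. In DESeq2 31 kept it, 19 lost it, among them Olr1, Adgrg6, Adamts5, Dll4 and Cpe, and 7 had no value there.

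Of 10 tested adhesion genes outside the rule, 0 were higher and 2 lower. Over all genes tested 2.16% were higher and 1.66% lower. The 0 higher of 10 is near the share over all genes, and the 2 lower of 10 are above it. Vcam1 was 356 CPM in Sham and 355 CPM at D7 in arterial-set cells against 87.2 and 143 CPM in members (-1.63 ± 0.31, adjusted p = 0.0253, edgeR), a call lost with Ptprc at 0. Edn1, at 559 and 415 CPM in arterial-set cells, was lower in members by 1.90, whereas it was higher in members than in capillary-set cells. These 2 comparisons share the member libraries.

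Counts of the other lists against arterial-set cells stand beside 2.16% higher and 1.66% lower over all genes tested. Haemostasis gave 4 higher and 2 lower of 16, capillary genes 3 and 1 of 14, and cytokine receptors 3 and 0 of 15. Chemokines gave 2 and 0 of 11, angiogenic genes 2 and 2 of 19, and Tie, Notch and flow genes 0 and 4 of 21. Counts of 2 or more are above the shares over all genes. Junction genes gave 1 and 1 of 15, and NF-kappaB-linked and interferon genes 1 and 0 each of 15 and of 12. MHC, cell cycle, glycolysis and dissociation genes gave 0 calls of 11, 7, 16 and 19, near the 3.82% called over all genes.

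Within members, levels were compared between the 3 libraries. A gene was counted as apart when its ratio of (CPM + 1) reached 2 and the library with the higher value held 50 CPM and 20 UMIs or more. At D2 599 of 3957 such genes were higher than in Sham (15.1%) and 489 lower (12.4%). At D7 338 of 3824 were higher than in Sham (8.84%) and 296 lower (7.74%), and from D2 to D7 224 of 4036 were higher (5.55%) and 106 lower (2.63%). The median log2 ratio over all genes was 0.16, 0.13 and -0.01. Counts for the lists below are to be read beside these shares over all genes. The D2 and D7 comparisons with Sham share the Sham library, so their values are set side by side and not counted as support for each other.

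Who was a member moved the balance of these counts. The share of higher calls was 55.1% at D2 and 53.3% at D7 against Sham. It was 76.5% and 77.5% with set B read without Nr2f2, 74.7% and 76.3% with at least 2 set B genes, and for D7 65.4% as a mean over cells and 66.7% with the rule read at 2000 UMIs. In bulk sums of this kind, fewer cells of a kind among the members and less RNA of a gene in each cell cannot be told apart.

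Of the list of angiogenic and basement membrane genes 8 of 17 were apart and higher at D2 and 8 of 16 at D7, and none was lower (median log2 ratio 0.99 and 0.85). Col4a1, a chain of collagen IV, was 118 CPM in Sham, 1251 at D2 and 1012 at D7, 10.6-fold (7.65 to 15) and 8.55-fold (6.19 to 12.1) the Sham level. Its partner chain Col4a2 was 65.4, 580 and 521 CPM, and Col18a1, the source of endostatin, 53.0, 539 and 324 CPM. Sparc, a matrix-binding protein also made by fibroblasts, was 907, 2528 and 3270 CPM. Without the members rich in other markers Col4a1 was 12.5-fold and 10.9-fold the Sham level as a ratio of (CPM + 1).

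Angpt2, the Tie2 ligand of Weibel-Palade bodies, was 9.35 CPM in Sham (3 UMIs), 92.1 at D2 and 77.5 at D7, ratios of 9.85 (3.24 to 48.9) and 8.29 (2.75 to 40.9). Apln, which encodes apelin, had 1 UMI in Sham, 132 CPM at D2 and 39.2 CPM at D7. Its receptor gene Aplnr was 24.9 CPM in Sham and 332 and 335 CPM after injury, 13.3-fold (6.66 to 31.2) and 13.5-fold (6.76 to 31.4). After thinning to 1000 UMIs Aplnr had a UMI in 1.43% of Sham, 22.7% of D2 and 17.7% of D7 members, and in 0% of B lymphocytes in each library.

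The genes that led by ratio had a low Sham level, which the ranking favours because its floor applies to the higher library only. Fjx1, a secreted regulator of planar polarity, had 0 UMIs in Sham, 122 CPM at D2 and 110 CPM at D7, at least 13.1-fold and 11.8-fold higher against 3 UMIs. Kit, the stem cell factor receptor, had 0 UMIs in Sham, 54.3 CPM at D2 and 77.5 CPM at D7 (at least 5.80-fold and 8.29-fold). Gja1, which encodes connexin 43, was 12.5, 225 and 134 CPM, 18.0-fold (6.92 to 66.9) at D2 and 10.7-fold (4.12 to 39.9) at D7. Tacr1, the substance P receptor, was 15.6, 71.9 and 193 CPM and Ap1s1, an adaptor complex subunit, 3.12, 79.5 and 55.5 CPM.

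Venous genes moved both ways: 5 were higher and 5 lower of 16 at D2, and 4 higher and 3 lower of 15 at D7. Il1r1 was 146, 384 and 620 CPM, 2.62-fold (1.92 to 3.64) at D2 and 4.24-fold (3.15 to 5.81) at D7, and Tmem252, a membrane protein, was 46.7, 423 and 268 CPM. Bst1 was 24.9, 68.1 and 71.8 CPM, and Lrg1 stayed within 2-fold at 969, 1195 and 1488 CPM.

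Lower after injury were Cytl1, Cpe, Ptgs1, Vwf and Ephb4 at D2, and the first 3 of them at D7. Cytl1 was 1526 CPM in Sham and 150 and 250 CPM after injury, 10.2-fold (8.31 to 12.5) and 6.11-fold (5.29 to 7.08) lower, and 61.3% of its D2 UMIs were in 3 cells. Cpe was 745, 266 and 321 CPM and Ptgs1 352, 126 and 150 CPM. Vwf was 2.31-fold lower at D2 (2.06 to 2.60), but within 2-fold as a mean over cells (ratio 0.87) or with set B read without Nr2f2 (0.71). Thinned to 1000 UMIs, Vwf had a UMI in 65.7% of Sham, 54.5% of D2 and 60.8% of D7 members.

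**Figure D4:**
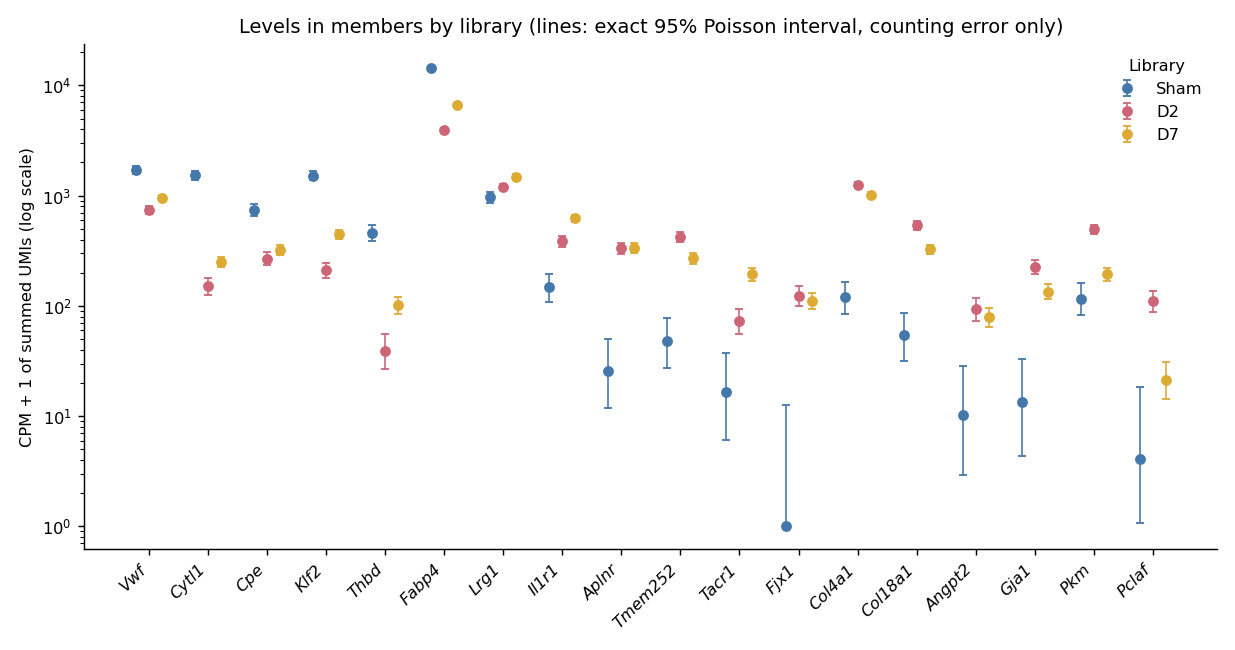
Points give CPM + 1 of summed UMIs in members (log axis) for 18 genes named in the text in Sham, D2 and D7, 1 value a library, with lines for the exact 95% Poisson interval. Vwf, Cytl1, Cpe, Klf2, Thbd and Fabp4 are highest in Sham, and the genes from Il1r1 rightward are lowest in Sham.

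Of 16 Tie, Notch and flow genes 8 were lower and 1 higher at D2 and 6 lower and 1 higher at D7 (median log2 ratio -0.90 and -0.65), and from D2 to D7 3 of 15 were higher and 0 lower. Klf2, the shear-induced transcription factor, was 1520 CPM in Sham, 209 at D2 and 443 at D7, 7.26-fold (6.08 to 8.71) and 3.43-fold (3.03 to 3.88) lower. Its relative Klf4 was 791, 78.2 and 138 CPM. Thbd, which encodes thrombomodulin, was 458, 37.8 and 100 CPM, 12.1-fold (8.13 to 18.6) and 4.56-fold (3.57 to 5.85) lower, and Nos3 was 302, 121 and 119 CPM.

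Klf2 and Klf4 are also induced by tissue dissociation, and genes of the dissociation list were lower in 11 of 17 at D2 (median -1.59) and in 7 of 17 at D7 (median -0.77), with 0 higher in both. Fos was 1053, 150 and 413 CPM and Egr1 386, 92.1 and 238 CPM. From D2 to D7 5 of the 17 were higher and 1 lower. The part of dissociation in the flow genes was not tested.

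Among genes of haemostasis 3 were higher and 5 lower of 14 at D2, and 5 higher and 4 lower of 15 at D7. Cd63, a membrane protein of Weibel-Palade bodies, was 131 CPM in Sham, 357 at D2 and 440 at D7. F8, the coagulation factor VIII gene, was 31.2, 18.9 and 80.8 CPM.

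Cell cycle genes were higher at D2 in 14 of 15 and lower in 0 (median log2 ratio 2.84). At D7 they were lower than at D2 in 10 of 15 (median -1.79), and against Sham 2 of the 4 that reached the floor were higher. The floor applied to the higher library only. The 14 and the 10 genes thus entered through their D2 level, and these counts and medians are a description. Mki67 was 3.12 CPM in Sham (1 UMI), 77.0 at D2 and 17.1 at D7, and the PCNA-binding factor gene Pclaf 3.12, 110 and 20.4 CPM. Ccnb2, a mitotic cyclin, had 0 UMIs in Sham and was 74.4 and 13.1 CPM at D2 and D7. The signal sat in few cells: at least 3 of 10 late cell cycle genes were found in 1 of 74 Sham, 11 of 44 D2 (25%, 13.2 to 40.3%) and 8 of 184 D7 members. At a common depth of 2000 UMIs these were 1 of 56, 4 of 43 (9.30%) and 3 of 158 (1.90%), so much of the D2 share at full depth was not seen at equal depth.

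Glycolysis genes were higher at D2 in 7 of 11 and lower in 0 (median 1.52). Pkm was 115, 494 and 192 CPM, Gapdh 383, 1114 and 543 CPM and Pgam1 43.6, 216 and 98.7 CPM. At D7 1 of 11 was higher than in Sham, and 6 of 12 were lower than at D2 (median -0.99).

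Capillary genes were lower than in Sham in 5 of 12 at D2, with 0 higher, and in 6 of 13 at D7, with 1 higher, Rgcc at 21.8, 11.4 and 60.4 CPM, whose D7-to-Sham ratio turned to 0.695 with the rule read at 2000 UMIs. Fabp4, the fatty acid-binding protein, was the most abundant of them at 14268 CPM in Sham, 3954 at D2 and 6637 at D7, 3.61-fold and 2.15-fold lower. Cd36 was 894, 286 and 427 CPM and the transcription factor gene Tcf15 134, 8.83 and 11.4 CPM. Arterial genes were lower in 4 of 10 at D2 and 3 of 10 at D7, with 0 higher, among them Bmx at 81.0, 12.6 and 23.7 CPM.

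The remaining genes named for the lowest ratios to Sham were Cgnl1 (103, 0 and 16.3 CPM in Sham, D2 and D7), a junction protein at least 27.2-fold lower at D2, Fhl1 (156, 3.78 and 17.9 CPM), the clock gene relative Npas2 (71.7, 1.26 and 17.9 CPM), Comp (175, 8.83 and 37.5 CPM), a matrix protein also made by fibroblasts, and Pkhd1l1 (125, 6.31 and 26.1 CPM). At D7 they included Car8 (93.5 CPM in Sham and 3.26 at D7), the epoxide hydrolase Ephx1 (165 and 11.4 CPM) and Palm (143 and 16.3 CPM). Genes higher at D7 than at D2 were led by the sulfatase Sulf2 at 20.2 and 99.5 CPM, 4.93-fold (2.92 to 8.90), with Nrep, F8, Nos1ap, Tmem140 and Tmtc1 at 3.88-fold to 4.43-fold.

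Of 9 adhesion genes outside the rule 1 was higher and 2 lower at D2, and 1 was higher and 1 lower at D7. These counts are near the shares over all genes tested, 15.1% higher and 12.4% lower at D2 and 8.84% and 7.74% at D7. Icam1 was 274, 223 and 188 CPM and Vcam1 87.2, 87.0 and 143 CPM, both within 2-fold of Sham. Glycam1 had 0 UMIs in Sham and was 24 CPM at D2 and 51.4 at D7, and Podxl was 227, 64.3 and 88.1 CPM.

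Of 9 NF-kappaB-linked genes 2 were higher and 1 lower at D2, and of 10 at D7 4 were higher and 1 lower. The shares over all genes tested were 15.1% and 12.4% at D2, near the D2 counts here, and 8.84% and 7.74% at D7. Nfkb1, which encodes the p50 subunit, was 106, 110 and 248 CPM, and Relb 15.6, 39.1 and 59.6 CPM. Cxcl2, a neutrophil chemokine, was 9.35 CPM in Sham (3 UMIs), 87.0 at D2 and 93.0 at D7. Cxcl1 was 49.8, 16.4 and 180 CPM, but without the members rich in other markers its D7-to-Sham ratio was 1.27. Csf3, which encodes G-CSF, had 0 UMIs in Sham and was 55.5 CPM at D2 and 6.53 CPM at D7.

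Il33 was 65.4 CPM in Sham, 3.78 at D2 and 62.0 at D7 (21, 3 and 76 UMIs), and the summed fibroblast genes were lowest at D2 as well. Without the members rich in other markers the D7-to-Sham ratio of Il33 was 0.27 and the D7-to-D2 ratio 2.61. Il1rl1, the gene of its receptor ST2, had 0, 0 and 1 UMI. Ccl7, at 81.0, 5.05 and 83.2 CPM, turned from lower to 6.29-fold higher at D2 than in Sham without those cells. Ackr3 was 489, 87.0 and 131 CPM. Of 6 tested chemokines and cytokines 2 were higher and 3 lower at D2 and 2 higher and 2 lower at D7, and from D2 to D7 3 of 7 were higher and 1 lower.

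Of 9 MHC genes 4 were lower and 0 higher than in Sham at D2, and at D7 0 of 10 were apart from Sham. The 4 were the class II genes H2-Aa, H2-Ab1 and H2-Eb1 and the invariant chain gene Cd74. H2-Aa was 106, 12.6 and 93.0 CPM and Cd74 196, 25.2 and 135 CPM, so that the D2 level was 7.78-fold below Sham and the D7 level 5.34-fold above D2. With Ptprc at 0 in every cell the D7-to-D2 ratio was 1.87 for Cd74 and 2.32 for H2-Aa. In the same alternative H2-Ab1 turned to lower at D7 than at D2. Interferon-stimulated genes were lower in 4 of 6 at D2 and 2 of 7 at D7, with 0 higher. Iigp1, at 361, 89.6 and 147 CPM, was 1.11 and 1.23 times Sham at D2 and D7 when the rule was read at 2000 UMIs.

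Of 12 cytokine receptor genes 2 were higher and 1 lower at D2, and 3 higher and 1 lower at D7. The D2 counts are near the shares over all genes tested (15.1% higher and 12.4% lower). At D7 those shares were 8.84% and 7.74%. Besides Il1r1, Csf2rb, the shared subunit for GM-CSF and interleukin-3, was 46.7, 82.0 and 105 CPM, and Lifr, the LIF receptor, 386, 102 and 146 CPM. Junction genes were 1 higher and 3 lower of 13 at D2 and 2 higher and 3 lower at D7, the lower ones including Cavin2 at 1305, 458 and 380 CPM.

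**Figure D5:**
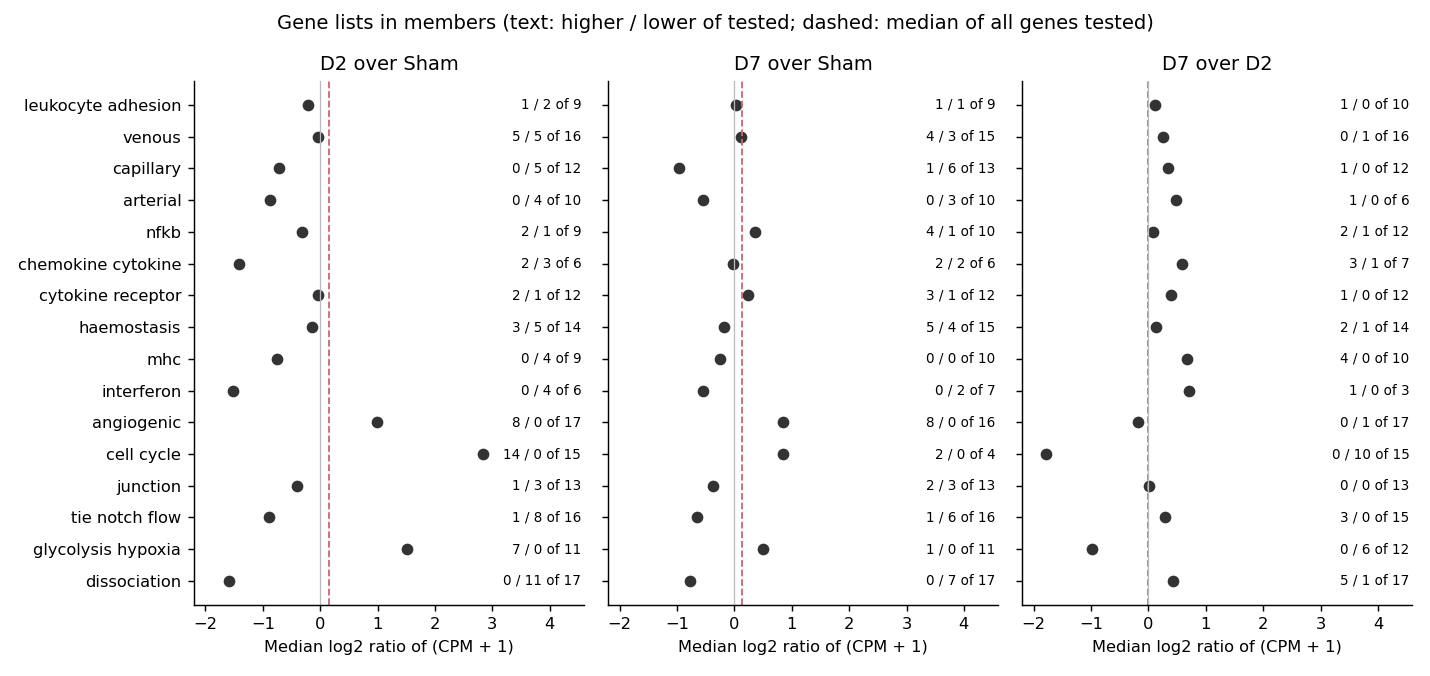
Each point is the median log2 ratio of (CPM + 1) over the tested genes of a list in members for D2 over Sham, D7 over Sham and D7 over D2, with the number apart and higher, the number lower and the number tested at the right, and a dashed line at the median of all genes tested. Cell cycle (2.84), glycolysis (1.52) and angiogenic (0.99) lists lie highest at D2, and the dissociation list (-1.59) lies lowest. The floor for a tested gene applied to the higher library only, so cell cycle genes higher at D2 entered through their D2 level.

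Members were not uniform within a library. The following splits were chosen with values known and are a description over cells of 1 library. Among Sham members, the 45 with Nr2f2 as their only set B gene had 2207 CPM of Vwf and 917 CPM of Cpe, against 1169 and 548 CPM in the 29 with Ackr1, Selp or Sele. Tmem252 was 5.84 CPM in the former and 93.5 in the latter. At D7 the 17 Nr2f2-only members had 734 CPM of Cytl1 and 24.9 CPM of Tmem252, against 216 and 286 CPM in the other 167. Depth was not tested as a part of these splits.

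Sele marked the opposite end. The 50 Sele-positive D7 members had 363 CPM of Vwf, 13.0 CPM of Cytl1 and 87.4 CPM of Cpe, against 1419, 435 and 504 CPM in the 134 without Sele. They had 1382 CPM of Col4a1 and 755 CPM of Il1r1 against 723 and 515 CPM. At D2 the 14 Sele-positive members had 444 CPM of Vwf, 0 UMIs of Cytl1 and 529 CPM of Il1r1 against 970, 263 and 274 CPM in the 30 without it. Most D2 Cytl1 UMIs were in few cells, as given above. Sele-positive members were deeper, with a median of 21235 against 11537 UMIs at D2 and 7615.5 against 4163.5 at D7, and the part of depth in these differences was not tested.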

How the data were processed

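The authors deposited 10x matrices of UMI counts per gene and barcode for each library. Cell Ranger 7.2.0 and Seurat 5.0.1 are listed, per the submitters' processing notes, and per the file headers the matrices were written by Cell Ranger 7.1.0. Per the labels, the build is mm10 (GRCm38). Rows sharing a symbol were summed (38 symbols on more than 1 of 32285 rows, leaving 32245).

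Members were found by the stated rule from the counts. No doublets were removed in the main analysis. As an alternative, Scrublet calls (54, 473 and 226 barcodes in Sham, D2 and D7) were removed. Counts were summed by library and class and tested with edgeR 4.0.16 (TMM, filterByExpr, quasi-likelihood, R 4.3.3) with library as a block, over libraries with at least 10 cells of both classes. The block pairs both classes of a library because they come from the same 6 mice. The SE of an edgeR log2 fold change was its absolute value divided by the square root of the test's F statistic. It was not computed from the spread of library values. DESeq2 1.42.0 was an alternative, and an adjusted p it gave as NA stayed NA. Levels between libraries are CPM with exact Poisson intervals and exact conditional intervals of ratios. Shares have Clopper-Pearson intervals, computed with scipy 1.17.1. A count of 0 was set to 3 counts for a bound. A cell rich in other markers had more than 50 per 10000 UMIs of the fibroblast, smooth muscle, pericyte, neutrophil or macrophage list, an alternative chosen after seeing the data. The scripts were tested on simulated data.

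Of 286 genes in 16 lists, 285 were found. The members, lists and tests were chosen with earlier results of these data known. For each pair of libraries, the genes named were the 6 highest and 5 lowest ratios of (CPM + 1) among genes apart, with a UMI in at least 20% of members of the higher library and a level there at least that of all other kept barcodes. For each class comparison they were the 10 highest and 10 lowest log2 fold changes among calls of at least 50 CPM with 1 direction in every library. Up to 4 genes of each list with the largest ratio and at least 50 CPM, Il33 and Il1rl1 were added, and list genes beyond these were chosen after their values were seen. Promoter sequences are RefSeq's, GRCm38.p6, and gene coordinates are from the annotation of GRCm38. Results for a few genes are not reported here.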

Additional observations from a re-analysis of the deposited data

How the results depend on the processing

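With set B read without Nr2f2, at least 2 set B genes, or the rule read at 2000 UMIs, the member share of endothelial cells was 6.13%, 4.95% and 12.6% in Sham and 41.6%, 38.9% and 39.0% at D7. Without Nr2f2 and with at least 2 genes, its ratio to Sham was 7.75 and 10.3 at D2 and 6.79 and 7.86 at D7. Among all kept barcodes the ratio was 0.949 and, reversed but with an interval that included 1, 1.27 (0.732 to 2.26) at D2, and 3.94 and 4.56 at D7. Genes apart numbered 564 (D2 over Sham), 326 (D7 over Sham) and 142 (D7 over D2) with a floor of 100 CPM and 40 UMIs, and 6408, 5052 and 3581 with none beyond 1 UMI.

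Against capillary-set cells 433 genes were called by DESeq2, 1228 with no filter on low counts, 233 with no replicate block, and 335 to 1036 with 1 library left out. Against arterial-set cells 102 were called with Ptprc at 0, 403 without cells rich in other markers, 100 by DESeq2, 577 with no filter, and 0 with no replicate block. Leaving out a library was not possible there, since 1 would remain. No paired analysis was possible because each group is 1 library where conditions are compared. The cause of these changes was not tested.

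The share of cells with a UMI without thinning was 29.7% (Sham), 90.9% (D2) and 78.8% (D7) for Selp, 59.1% (D2) and 47.3% (D7) for Aplnr, and 82.4%, 90.9% and 84.8% for Vwf. At 2000 UMIs it was 62.8% (D2) and 56.3% (D7) for Selp, 32.3% (D7) for Aplnr, and 83.9% (Sham) and 76.6% (D7) for Vwf.

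Single genes turned as follows, as ratios of (CPM + 1). Ccl7 at D2 over Sham was 5.80 without Nr2f2, 6.11 with at least 2 set B genes and 6.29 without cells rich in other markers. With the rule read at 2000 UMIs, Iigp1 was 1.11 at D2 over Sham, and Rgcc was 0.695, Iigp1 1.23 and Dnajb1 1.01 at D7 over Sham (Dnajb1 1.27 with at least 2 set B genes). Glycam1 was 0.943 at D7 over D2 as a mean over cells, H2-Ab1 0.870 with Ptprc at 0, and H2-Eb1 had a log2 fold change of -1.14 against capillary-set cells at 2000 UMIs.

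Each group is 1 pooled library, so nothing here measures the spread between mice. The 44 D2 members limit every D2 value, and 1 to 3 UMIs in Sham limit several of the highest ratios.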
